A study of Homo sapiens with 21 samples.

Results

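The ABC transporter family was followed in HepG2/C3A, a clonal derivative of a human hepatoma line, grown either as a flat layer (2D) or as 3D spheroids of 6 ages. Members were every gene symbol made of ABC, a subfamily letter from A to G and a number, which gave 45 of the 19683 symbols in the count table. The rule used no measured value. The cells were wild type by the labels, which name no drug or other agent. Monolayer cells grew in MEM with 10% FBS, non-essential amino acids and an antibiotic mix. Spheroids of the same cells were formed by aggregation in ultra-low attachment plates and then kept in the rotating ClinoReactor, and were collected at Days 3, 7, 10, 14, 21 and 28. Each of the 7 groups had 3 libraries, numbered as biological replicates in the labels, which do not mention separate cultures, so the p-values cover only the spread between these samples. RNA was measured by TempO-Seq, in which pairs of detector oligos are ligated on a short stretch of each transcript and sequenced.

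ABC proteins bind and hydrolyse ATP to move substrates across membranes. In hepatocytes, ABCB11, ABCB4 and ABCC2 export bile salts, phosphatidylcholine and conjugates such as bilirubin glucuronide across the canalicular membrane, and ABCB1, ABCG2 and the other ABCC pumps remove drugs and their conjugates. ABCA1, ABCG5 and ABCG8 export cholesterol and are known targets of the oxysterol receptor LXR, and the peroxisomal ABCD proteins carry fatty acyl-CoA into that organelle. Other members sit in mitochondria or lysosomes, and the ABCE and ABCF proteins have no membrane domain and act in translation.

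Promoter sequence is shown for 4 loci on which the results turn: the sterol pair ABCG5 and ABCG8, the drug pump ABCB1, which fell, ABCC6, which rose, and the peroxisomal ABCD3. Sequences are RefSeq on GRCh38.p14, written 5′ to 3′ on the strand given. The RefSeq starts of ABCG5 and ABCG8 lie head to head with 131 bases between them, at chr2:43838840-43838970, printed on the plus strand. The others are the 100 bases before an annotated start: ABCB1 at chr7:87600885-87600984 on the minus strand, ABCC6 at chr16:16223495-16223594 on the minus strand and ABCD3 at chr1:94418289-94418388 on the plus strand. Capitals mark the GC box GGGCGG on either strand.
ABCG5-ABCG8: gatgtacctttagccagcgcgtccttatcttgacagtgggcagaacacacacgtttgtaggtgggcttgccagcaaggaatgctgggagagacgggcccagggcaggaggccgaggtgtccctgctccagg
ABCB1: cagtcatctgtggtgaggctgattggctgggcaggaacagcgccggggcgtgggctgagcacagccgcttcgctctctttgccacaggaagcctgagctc
ABCC6: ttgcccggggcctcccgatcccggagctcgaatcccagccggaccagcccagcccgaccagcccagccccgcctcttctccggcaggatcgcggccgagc
ABCD3: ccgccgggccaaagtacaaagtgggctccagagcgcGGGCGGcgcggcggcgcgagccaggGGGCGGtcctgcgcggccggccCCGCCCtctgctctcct

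Of the 4 stretches, the GC box was present in ABCD3 alone, 3 times. The wider promoter windows, 250 bases before to 50 after each start, were found for 35 of the 45 members, as 53 windows among 35116 in the RefSeq table. The GC box lay in 25 of the 53 windows (47.2%) and in 45.0% of all windows. The hexamer AGGTCA, which nuclear receptors recognise, lay in 3 member windows, those of ABCD4, ABCF1 and ABCG2, and in 13.8% of all windows. Both strands were searched, for the exact letters printed only, so a site with any changed base was missed. The LXR direct repeat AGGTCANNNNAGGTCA, which contains the hexamer, was in no member window and in 0.0199% of all windows. The FXR inverted repeat AGGTCANTGACCT, which contains the hexamer too, was in none of either. The sterol response element TCACNCCAC was in no member window and in 1.13% of all. With exact matches this rare over all windows, their absence from the 53 member windows does not show that members lack such sites.

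Counts reached 29 of the 45 members in sufficient number to be tested. A further 7 were at 0 in all 21 libraries, namely ABCA13, ABCB5, ABCC8, ABCC9, ABCD2, ABCG1 and ABCG4. The other 9 had a few counts, at most 16 in any library, and were ABCA3, ABCA4, ABCA6, ABCA8, ABCA9, ABCA10, ABCA12, ABCB11 and ABCC12. A count of 0 allows up to 3 counts, which came to between 0.0691 and 0.160 CPM (counts scaled to library size) in the individual libraries. That limit covers counting error only, and a 0 does not tell a silent gene from a probe that gives no counts. Levels below are CPM on scaled library sizes, always compared between libraries for the same gene, since counts of different genes depend on their probes. Exons of 11 tested members overlap another gene in GENCODE 29 (ABCA5, ABCB6, ABCB8, ABCB9, ABCC10, ABCC11, ABCD4, ABCE1, ABCF2, ABCG5 and ABCG8). The sources used here do not give whether counting used strand, so counts there may be shared.

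The family was split at the change from monolayer to spheroid. At Day 3, 17 of the 29 tested members were higher than in 2D, 10 were lower and 2 were not called, against 78% of all 12345 genes tested called in either direction (40.1% higher and 37.8% lower). The median log2 fold change of the 29 was 0.61, beside 0.06 over all genes. By at least 2-fold, 12 members rose (25.4% of all genes did) and 4 fell (20%). At Day 28, 16 were higher, 10 lower and 3 not called, with a background of 73.4% (38.5% higher and 34.8% lower). The median was then 0.67, beside 0.08 over all genes, with 9 members higher by at least 2-fold (22%) and 3 lower (15.7%). At Day 7, 17 were higher and 10 lower (background 78.7%, with 40.4% higher and 38.4% lower), and at Day 10 the counts were again 17 and 10 (77.9%, with 40% and 37.9%). At Day 14, 16 were higher and 10 lower (74.4%, with 38.7% and 35.7%), and so they were at Day 21 (74.3%, with 39.3% and 35.1%). All 6 of these comparisons share the 3 monolayer libraries.

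**Figure D1:**
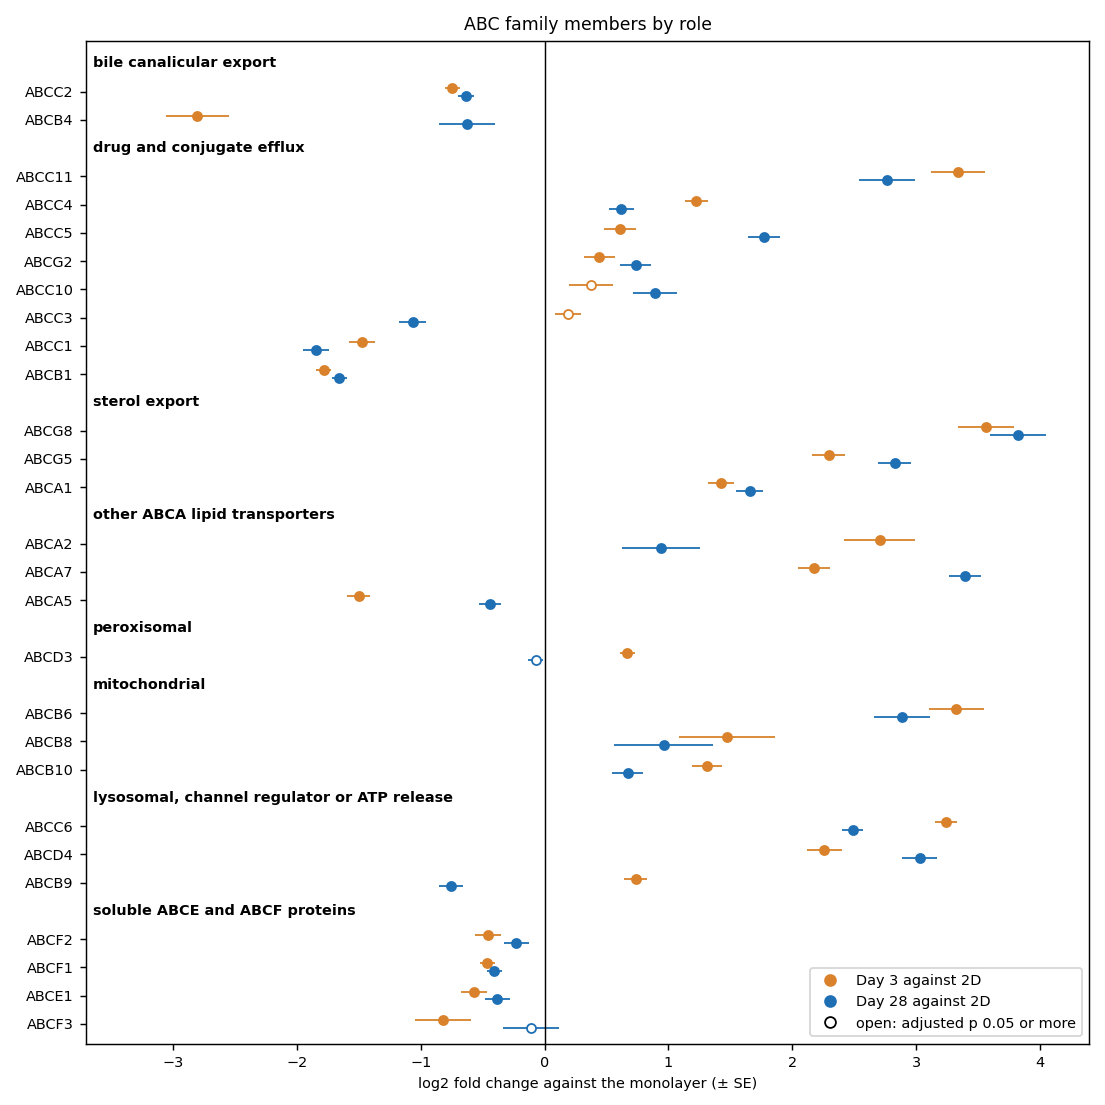
Log2 fold change against 2D (± SE) of tested members at Day 3 and Day 28, grouped by role. Filled points passed the test and open points did not. The sterol exporters lie at 1.42 or above at both days. ABCB4 and ABCC2, the members listed as canalicular exporters, lie below 0, as do the soluble ABCE and ABCF proteins.

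ABCB4 and ABCC2, the tested members listed as canalicular exporters, were lower in spheroids. Pumps listed under other roles, such as ABCB1, ABCG2, ABCG5 and ABCG8, are given below and moved both ways. Both ABCB4 and ABCC2 fell at Day 3 and Day 28, with a median log2 fold change of -1.77 at Day 3 and -0.63 at Day 28. Over all genes 37.8% and 34.8% were lower, with medians of 0.06 and 0.08. ABCB11, the bile salt export pump, had 4 counts in a Day 7 library, 2 in a Day 14 library and 0 in the other 19, so its level could not be compared at this depth.

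ABCB4, the phosphatidylcholine floppase, stood at 5.76, 7.99 and 6.18 CPM in the 3 monolayer libraries and at 0.994, 1.11 and 0.744 at Day 3, which rest on 40, 32 and 21 counts. It held 1.37, 1.35 and 0.931 CPM at Day 7 and 1.53, 1.01 and 1.06 at Day 10, then 2.90, 2.45 and 2.90 at Day 14. Day 21 gave 2.84, 3.84 and 3.29, and Day 28 gave 3.20, 5.12 and 4.5. All spheroid libraries lay below all monolayer libraries, and those of Day 14 and later lay above those of Days 3 to 10. The log2 fold change was -2.80 ± 0.25 at Day 3 (adjusted p = 7.18e-12), a 6.98-fold fall. Between Day 28 and Day 3 it rose by 2.18 ± 0.26 (adjusted p = 8.04e-09). At Day 28 it was still -0.63 ± 0.22 from 2D (adjusted p = 0.0128). That call was lost without 2D replicate 2 (adjusted p = 0.116), without Day 28 replicate 1 (0.0749) and with scaling by library size only (0.110, at -0.41).

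ABCC2, the conjugate pump MRP2, stood at 413, 427 and 405 CPM in 2D, at 254, 253 and 237 at Day 3 and at 272, 253 and 277 at Day 28. Its lowest spheroid level was 201 ± 12.5 CPM (SD, n = 3) at Day 10 and its highest 311 ± 17.7 at Day 21. No spheroid library reached a monolayer library. The log2 fold change was -0.74 ± 0.062 at Day 3 (adjusted p = 1.07e-12) and -0.64 ± 0.062 at Day 28 (adjusted p = 6.43e-11), and -0.42 at Day 28 when scaled by library size only, still called. Day 10 was lower than Day 7 by -0.53 ± 0.062 and Day 21 higher than Day 14 by 0.44 ± 0.062.

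The drug and conjugate pumps did not all move the same way, nor did the genes as a whole. Of the 8 tested, 4 were higher at Day 3, 2 were lower and 2 were not called (median 0.41). Over all genes 40.1% were higher and 37.8% lower (median 0.06). At Day 28, 5 were higher and 3 lower (median 0.68), against 38.5% and 34.8% of all genes (median 0.08).

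ABCB1, P-glycoprotein, is the best known multidrug pump. Its monolayer libraries held 819, 846 and 839.9 CPM. At Day 3 they held 249.6, 246 and 232, at Day 7 267, 262 and 250.5, and at Day 10 204, 203 and 218. The later values were 309.6, 288 and 309 at Day 14, 254, 248 and 279 at Day 21, and 267, 250.3 and 276 at Day 28. The spheroid libraries thus held at most 309.6 CPM and the monolayer libraries at least 819. The fall was 3.44-fold at Day 3 (log2 fold change -1.78 ± 0.061, adjusted p = 3.58e-23) and 3.16-fold at Day 28 (-1.66 ± 0.060, adjusted p = 3.79e-22). Within the spheroid series it fell by -0.32 ± 0.059 from Day 7 to Day 10 and rose by 0.53 ± 0.059 from Day 10 to Day 14. Day 28 differed from Day 3 by 0.12 ± 0.059 (adjusted p = 0.0732), which did not pass.

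ABCC1, the conjugate pump MRP1, moved the same way as ABCB1. It held 103, 111 and 98.8 CPM in 2D, 39.6, 36.9 and 35.9 at Day 3 and 23.4, 33.9 and 29.1 at Day 28, with no overlap between 2D and any spheroid library. Against 2D it fell by -1.47 ± 0.10 at Day 3 (adjusted p = 2.31e-14) and -1.85 ± 0.11 at Day 28 (adjusted p = 1.92e-16). The further fall between Day 3 and Day 28, -0.37 ± 0.11 (adjusted p = 0.00336), was not called without Day 28 replicate 1 (-0.23, adjusted p = 0.0577).

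ABCC11, an exporter of lipophilic anions, moved the other way. Its monolayer libraries held 0.974, 0.763 and 0.716 CPM, or 23, 30 and 22 counts, against 8.55, 7.64 and 8.36 CPM at Day 3 and 6.83, 3.98 and 5.94 at Day 28. The groups did not overlap, and the rise was 10.1-fold at Day 3 (3.34 ± 0.22, adjusted p = 1.43e-15) and 6.80-fold at Day 28 (2.76 ± 0.22, adjusted p = 6.07e-13). Day 28 was lower than Day 3 by -0.58 ± 0.17 (adjusted p = 0.00518), a call lost without Day 28 replicate 2 (-0.34, adjusted p = 0.113). ABCC11 lies on chromosome 16 from 48166910 to 48247568 (GRCh38, minus strand), and its exons overlap those of LONP2 on the other strand.

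ABCC4, the nucleotide and conjugate pump MRP4, was higher at all spheroid ages than in 2D and lower at the end than at the start of the series. It held 17.5, 17.4 and 17.1 CPM in 2D, 40.4, 42.9 and 38.4 at Day 3, and 23.4, 25.6 and 30.8 at Day 28. Group means from Day 7 to Day 21 stayed between 39.5 and 41.8 CPM, so the lower values belong to Day 28. It rose by 1.23 ± 0.096 at Day 3 (adjusted p = 2.07e-13) and 0.62 ± 0.098 at Day 28 (adjusted p = 1.01e-06), and Day 28 was below Day 21 by -0.62 ± 0.094 (adjusted p = 8.56e-06).

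ABCC5, the cyclic nucleotide pump MRP5, rose further with age. Its libraries held 8.56, 7.56 and 8.07 CPM in 2D, 10.6, 13.6 and 12.7 at Day 3, and 26.9, 26.8 and 28.5 at Day 28. The groups were ordered without overlap. Log2 fold changes were 0.61 ± 0.13 at Day 3 (adjusted p = 0.000102), 1.77 ± 0.13 at Day 28 (adjusted p = 5.63e-14) and 1.16 ± 0.13 between those days (adjusted p = 1.26e-09). The step from Day 10 to Day 14 was 0.72 ± 0.12 (adjusted p = 1.06e-05).

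ABCC3, the basolateral conjugate pump MRP3, did the reverse. It held 33.5, 28.3 and 30.0 CPM in 2D and 35.5, 36.3 and 32.7 at Day 3, which overlap, and 17.6, 13.5 and 13 at Day 28, which do not. Day 3 differed from 2D by 0.19 ± 0.11 (adjusted p = 0.0986) and Day 28 by -1.07 ± 0.11 (adjusted p = 2.79e-10). Between the days it fell by -1.26 ± 0.11 (adjusted p = 1.4e-11), with the largest step between consecutive days from Day 14 to Day 21 (-0.68 ± 0.11).

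ABCG2, the breast cancer resistance protein, which exports drugs and urate, held 9.83, 12 and 13.5 CPM in 2D and 15.8, 17.0 and 15.5 at Day 3. It held 16.3, 14.4 and 14.4 at Day 7, 14.4, 16.4 and 16.0 at Day 10, 24.2, 22.2 and 26.5 at Day 14, 21.3, 16.5 and 21.1 at Day 21 and 20.5, 16.8 and 21.9 at Day 28. All spheroid libraries lay above the monolayer, and the 3 of Day 14 were the highest 3 of the 21. The rise was 0.44 ± 0.13 at Day 3 (adjusted p = 0.00191), 0.73 ± 0.13 at Day 28 (adjusted p = 4.08e-06) and 0.64 ± 0.12 from Day 10 to Day 14 (adjusted p = 5.16e-05). Day 28 against Day 3 gave 0.29 ± 0.12 (adjusted p = 0.042). That call was lost without Day 3 replicate 1 or 3 (adjusted p = 0.0674 and 0.0733), without Day 28 replicate 1 or 3 (0.0777 and 0.145) and with scaling by library size only (0.0534). The last of the 8, ABCC10, a drug pump of the MRP group, differed from 2D by 0.37 ± 0.18 at Day 3 (adjusted p = 0.0553) and rose by 0.89 ± 0.18 at Day 28 (adjusted p = 3.55e-05). Its difference between Day 28 and Day 3, 0.52 ± 0.17 (adjusted p = 0.0102), was not called without Day 28 replicate 2 (0.0761).

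**Figure D2:**
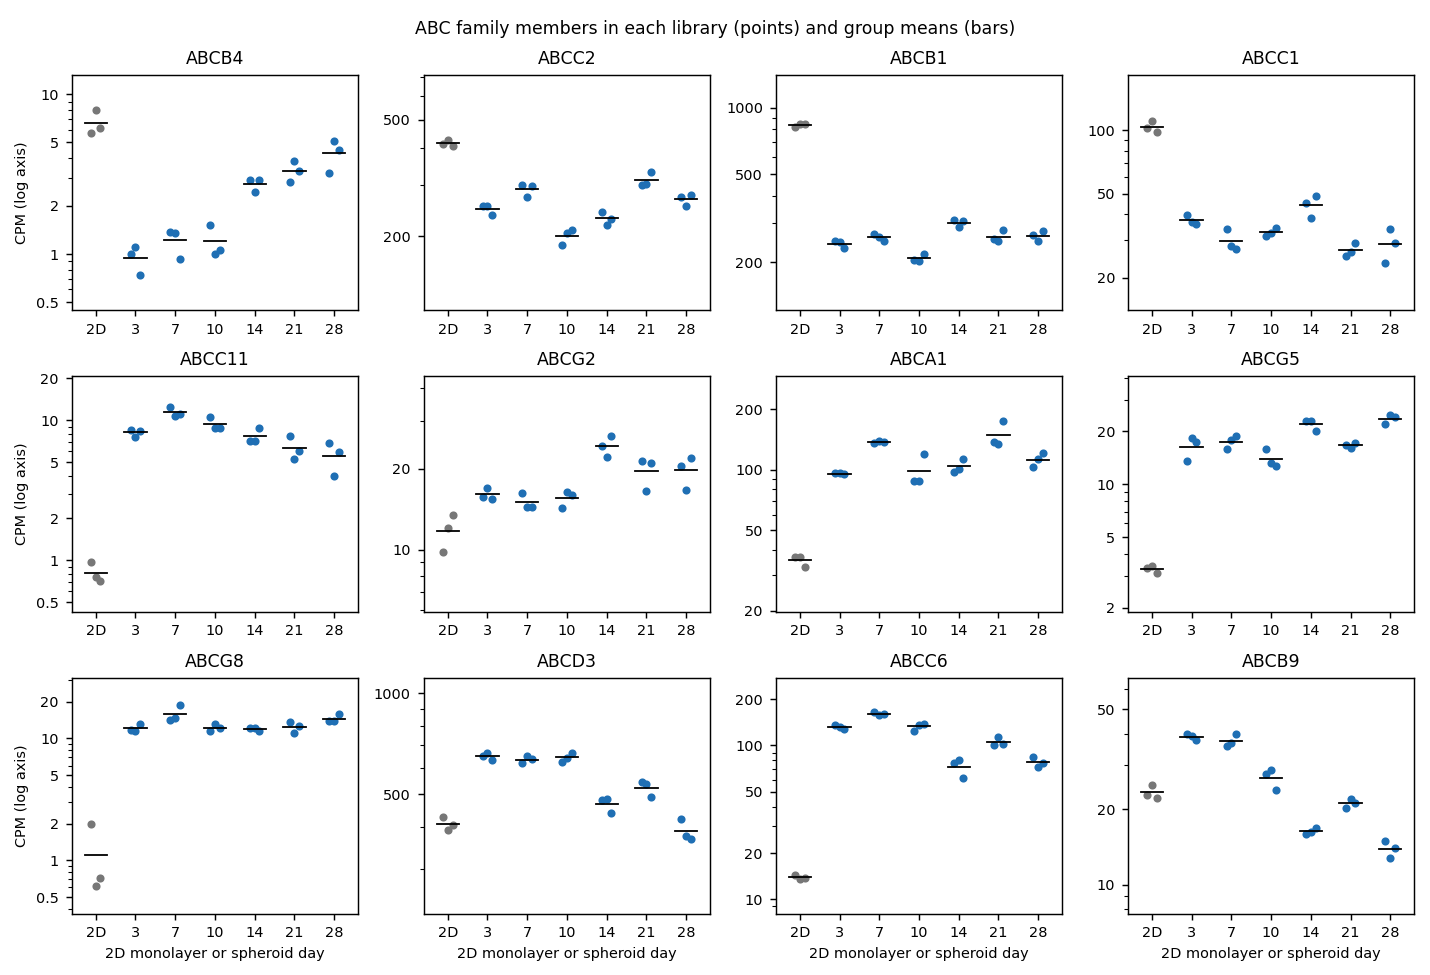
CPM (log axis, a scale for each gene) of 12 members in each library, with bars at the group means, for the monolayer (grey) and the spheroid days (blue). ABCB1 falls from 819 CPM or more in 2D to 309.6 or less in spheroids, and ABCC6 rises from 14.5 CPM or less to 61.0 or more.

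The sterol exporters that could be tested rose. All 3 were higher than in 2D at Day 3 and Day 28, with medians of 2.29 and 2.83. Over all genes 40.1% and 38.5% were higher, with medians of 0.06 and 0.08. The other 2 sterol exporters, ABCG1 and ABCG4, which export cholesterol to HDL, were at 0 in all 21 libraries.

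ABCA1 loads cholesterol and phospholipid onto apolipoprotein A1. Its monolayer libraries held 37.1, 37.1 and 32.9 CPM, and those of Day 3 held 96.2, 96.1 and 94.9. Day 7 gave 136, 139.8 and 138, Day 10 gave 87.9, 88.4 and 120.3, and Day 14 gave 97.7, 101 and 114. The libraries held 137, 134 and 175 CPM at Day 21 and 103, 113 and 121 at Day 28. All spheroid libraries lay above all monolayer libraries, with the highest group means at Days 7 and 21. The log2 fold change was 1.42 ± 0.11 at Day 3 (adjusted p = 1.21e-11) and 1.66 ± 0.11 at Day 28 (adjusted p = 9.8e-13). Day 7 was above Day 3 by 0.53 ± 0.10, Day 10 below Day 7 by -0.48 ± 0.10, Day 21 above Day 14 by 0.51 ± 0.10 and Day 28 below Day 21 by -0.40 ± 0.10, all called.

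ABCG5 and ABCG8 are the partners of a single sterol transporter, each supplying part of it. ABCG5 held 3.35, 3.44 and 3.16 CPM in 2D, 13.5, 18.2 and 17.3 at Day 3, 15.9, 17.7 and 18.7 at Day 7, and 15.8, 13.2 and 12.6 at Day 10. It held 22.8, 23.0 and 20.1 at Day 14, 16.6, 16.1 and 17.2 at Day 21, and 22.0, 24.5 and 24.0 at Day 28. The monolayer and spheroid libraries did not overlap. The rise was 4.91-fold at Day 3 (2.29 ± 0.13, adjusted p = 5.24e-17) and 7.10-fold at Day 28 (2.83 ± 0.13, adjusted p = 2.9e-19). Later days moved it both ways, by 0.67 ± 0.11 from Day 10 to Day 14, -0.40 ± 0.11 to Day 21 and 0.50 ± 0.11 to Day 28.

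ABCG8 held 1.99, 0.611 and 0.716 CPM in 2D, or 47, 24 and 22 counts, with replicate 1 above the other two. Spheroid libraries held 11.8, 11.5 and 13.2 CPM at Day 3, 14.1, 14.8 and 18.8 at Day 7, 11.5, 13.2 and 12.2 at Day 10 and 12.2, 12.2 and 11.4 at Day 14. They held 13.7, 11 and 12.6 at Day 21 and 13.9, 13.8 and 15.9 at Day 28. No spheroid library overlapped the monolayer. The log2 fold change was 3.56 ± 0.23 at Day 3 (adjusted p = 5.53e-15) and 3.83 ± 0.23 at Day 28 (adjusted p = 1.46e-15), and 4.16 and 4.44 without 2D replicate 1. Unlike ABCG5, it gave no call among the spheroid days (F test, adjusted p = 0.120), though whether the partners differ in this was not tested. The genes run in opposite directions on chromosome 2, ABCG5 from 43812472 to 43838865 and ABCG8 from 43831942 to 43882987, with exons that overlap.

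Among the other ABCA lipid transporters, 3 of 11 were tested. ABCA7, a phospholipid exporter linked to phagocytosis, held 3.30, 4.22 and 2.90 CPM in 2D, 14.9, 15.5 and 17.4 at Day 3, and 37.1, 40.2 and 33.8 at Day 28, without overlap. It rose by 2.18 ± 0.13 at Day 3 (adjusted p = 2e-16) and 3.40 ± 0.13 at Day 28 (adjusted p = 1.6e-21), with 1.22 ± 0.11 between those days (adjusted p = 3.43e-11). ABCA2, an endolysosomal lipid transporter, held 0.932, 0.636 and 0.651 CPM in 2D, 4.30, 4.67 and 5.32 at Day 3, and 0.907, 1.70 and 1.47 at Day 28. The Day 28 libraries thus reached back into the monolayer range. The rise was 2.71 ± 0.29 at Day 3 (adjusted p = 3.48e-10) and 0.94 ± 0.32 at Day 28 (adjusted p = 0.0085), a call lost without Day 28 replicate 2 (adjusted p = 0.0598). The fall from Day 3 to Day 28 was -1.77 ± 0.27 (adjusted p = 1.1e-06). ABCA5, a lysosomal sterol transporter, held 49.8, 49.8 and 48.5 CPM in 2D, 16.8, 18.5 and 17.0 at Day 3, and 36.0, 37.2 and 35.8 at Day 28. It fell at first and then rose, by -1.50 ± 0.092 at Day 3 (adjusted p = 3.17e-16) and 1.06 ± 0.092 from Day 3 to Day 28 (adjusted p = 9.73e-12), and ended at -0.44 ± 0.089 from 2D (adjusted p = 4.52e-05). That last value was -0.23 when scaled by library size only (adjusted p = 0.03). ABCA5 is the only member of a chromosome 17 cluster (ABCA8, ABCA9, ABCA6, ABCA10 and ABCA5, all on the minus strand) with enough counts to be tested, and its exons overlap those of ABCA10.

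ABCD3, PMP70, which carries long and branched acyl-CoA into peroxisomes, was higher in young spheroids than in 2D and fell with age. It held 428, 392 and 406 CPM in 2D, 650.2, 665 and 633 at Day 3, 618, 651 and 635 at Day 7 and 626, 641 and 664 at Day 10. It then held 479.9, 485 and 441 at Day 14, 544, 537 and 491 at Day 21, and 423, 376 and 368 at Day 28. Libraries of Days 3 to 10 all held 618 CPM or more, and those of Day 28 overlapped the monolayer. The log2 fold change was 0.67 ± 0.062 at Day 3 (adjusted p = 1.05e-11), -0.46 ± 0.061 from Day 10 to Day 14 (adjusted p = 1.6e-07) and -0.74 ± 0.062 from Day 3 to Day 28 (adjusted p = 3.42e-12). Day 28 differed from 2D by -0.07 ± 0.062 (adjusted p = 0.297). The sign of that last difference depended on the scaling, with 0.14 (adjusted p = 0.0152) by library size only, and it was -0.15 (adjusted p = 0.03) without Day 28 replicate 1. ABCD2, another peroxisomal acyl-CoA transporter, was at 0 in all 21 libraries.

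Among the mitochondrial members, not all of which are reported here, ABCB6, ABCB8 and ABCB10 rose at Day 3 and Day 28. ABCB6, a porphyrin transporter, held 0.847, 1.20 and 0.618 CPM in 2D (20, 47 and 19 counts), 8.70, 10.9 and 7.87 at Day 3, and 6.94, 5.29 and 8.11 at Day 28. It rose 10.0-fold at Day 3 (3.33 ± 0.22, adjusted p = 2.42e-15) and 7.40-fold at Day 28 (2.89 ± 0.22, adjusted p = 2.32e-13), without overlap. Its lower level at Day 28 than at Day 3, -0.44 ± 0.18 (adjusted p = 0.0341), rested on overlapping libraries. That call was lost without Day 3 replicate 1 or 2 (adjusted p = 0.0628 and 0.256, the latter at -0.27) and without Day 28 replicate 1 or 2 (0.0572 and 0.291, the latter at -0.25). ABCB10, which supports heme synthesis, held 7.67, 10.5 and 10.7 CPM in 2D, 26.3, 22.5 and 23.4 at Day 3, and 14.5, 15.7 and 16.2 at Day 28. It rose by 1.31 ± 0.12 at Day 3 (adjusted p = 1.38e-11) and 0.67 ± 0.12 at Day 28 (adjusted p = 1.36e-05), and it has pseudogene copies that make its values uncertain. ABCB8, known for iron export from mitochondria, held 0.551, 0.509 and 0.748 CPM in 2D, 1.14, 1.80 and 2.13 at Day 3, and 1.76, 1.02 and 0.815 at Day 28. Its rise was 1.47 ± 0.38 at Day 3 (adjusted p = 0.000891). At Day 28 it was 0.96 ± 0.40 (adjusted p = 0.0307), a call lost without 2D replicate 1 or 2 (adjusted p = 0.0722 and 0.0895), without Day 28 replicate 1 (0.218, at 0.60) and in a fit of the 2 groups alone (0.0555).

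ABCC6, ABCD4 and ABCB9 were the tested members of the last membrane group, which also held the potassium channel regulators ABCC8 and ABCC9, both at 0. ABCC6 releases ATP from hepatocytes and is the gene of pseudoxanthoma elasticum. Its libraries held 14.5, 13.5 and 13.8 CPM in 2D, 135, 131 and 128 at Day 3, 164, 157 and 159.6 at Day 7 and 124, 136 and 139 at Day 10. They held 77.0, 80.0 and 61.0 at Day 14, 101, 113 and 102 at Day 21, and 84.5, 72.6 and 77.0 at Day 28. The spheroid libraries thus held at least 61.0 CPM and the monolayer libraries at most 14.5. The rise was 9.46-fold at Day 3 (3.24 ± 0.088, adjusted p = 9.56e-26) and 5.61-fold at Day 28 (2.49 ± 0.087, adjusted p = 1.46e-22), with a drop of -0.87 ± 0.078 from Day 10 to Day 14 (adjusted p = 3.8e-11) and a return of 0.53 ± 0.078 from Day 14 to Day 21. ABCC6 has the pseudogene copies ABCC6P1 and ABCC6P2, which could share its counts, so its values are uncertain in that respect.

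ABCC6 and ABCC1 are neighbours on chromosome 16 whose 3′ ends face each other. ABCC1 spans 15949577 to 16143074 on the plus strand and ABCC6 16148928 to 16223522 on the minus strand, 5854 bases apart (GRCh38, GENCODE 29). They moved in opposite directions against 2D at Day 3 and Day 28. The neighbours ABCB4 (chromosome 7, 87401697 to 87480435) and ABCB1 (87503633 to 87713323), both on the minus strand and 23198 bases apart, both fell.

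ABCD4, which brings cobalamin out of lysosomes, held 3.18, 2.82 and 4.49 CPM in 2D, 16.1, 17.0 and 17.1 at Day 3, and 34.2, 24.7 and 26.9 at Day 28, without overlap. It rose by 2.26 ± 0.14 at Day 3 (adjusted p = 4.12e-16) and 3.03 ± 0.14 at Day 28 (adjusted p = 2.29e-19), with a step of 0.69 ± 0.12 from Day 10 to Day 14. ABCB9, a lysosomal peptide transporter, held 22.9, 25 and 22.2 CPM in 2D, 39.9, 39.2 and 37.7 at Day 3, 35.8, 36.7 and 39.8 at Day 7 and 27.7, 28.7 and 23.8 at Day 10. It held 15.9, 16.2 and 16.8 at Day 14, 20.3, 22.0 and 21.1 at Day 21, and 14.9, 12.8 and 14.1 at Day 28. Day 3 libraries were all above and Day 28 libraries all below the monolayer. Its log2 fold change was 0.74 ± 0.090 at Day 3 (adjusted p = 7.25e-09), -0.76 ± 0.095 at Day 28 (adjusted p = 1.51e-08) and -1.49 ± 0.095 between those days (adjusted p = 4.67e-15). Exons of ABCB9 on chromosome 12 overlap those of ARL6IP4 and OGFOD2 on the other strand.

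All 4 soluble members fell at Day 3 (median -0.52), against 37.8% of all genes lower (median 0.06). At Day 28, 3 of them were lower (median -0.30), against 34.8% of all genes (median 0.08). ABCE1, the ribosome recycling factor, differed from 2D by -0.57 ± 0.10 at Day 3 (adjusted p = 7.38e-06) and -0.38 ± 0.10 at Day 28 (adjusted p = 0.00135). ABCF1, which acts in translation initiation, fell from 245, 243 and 240.4 CPM in 2D to 176, 172 and 181 at Day 3 and 182, 186 and 182 at Day 28, by -0.46 ± 0.060 (adjusted p = 2.37e-08) and -0.41 ± 0.060 (adjusted p = 3.52e-07). ABCF2, which has pseudogene copies and is uncertain for that reason, gave -0.46 ± 0.10 (adjusted p = 0.000156) and -0.23 ± 0.10 (adjusted p = 0.0469). ABCF3 gave -0.82 ± 0.23 (adjusted p = 0.00173) and -0.11 ± 0.22 (adjusted p = 0.672). By library size only, ABCE1, ABCF1 and ABCF2 stood at -0.35, -0.24 and -0.24 at Day 3, still called, and at -0.16 (adjusted p = 0.165), -0.19 (0.00818) and -0.01 (0.932) at Day 28, where ABCF3 turned to 0.11 (0.681). The Day 28 call of ABCF2 was also lost when any of 5 of the 6 libraries compared was left out (all but 2D replicate 1; adjusted p from 0.0632 to 0.249), without the filter on low counts (0.141) and in a fit of the 2 groups alone (0.0546).

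Most tested members differed among the spheroid days, as did most genes. Among the 6 spheroid days 26 of 29 differed by the F test (76.2% of all genes did). Whether age itself caused this was not tested. Among those not called were ABCB8 and ABCG8 (adjusted p = 0.402 and 0.120). Between Day 28 and Day 3, 9 members were higher, 10 lower and 10 not called, against 59.6% of all genes called (29.5% higher and 30.2% lower). At least 2-fold higher were ABCB4, ABCA7, ABCC5 and ABCA5 (8.69% of all genes), and at least 2-fold lower were ABCA2, ABCB9 and ABCC3 (10.6%). In the first step, Day 3 to Day 7, 6 members rose and 3 fell (19.4% of all genes called, 10.6% higher and 8.76% lower, which is 1312 and 1081 genes, or 1065 and 1637 when scaled by library size only). From Day 7 to Day 10, 4 rose and 8 fell (27.4%, with 13.9% and 13.5%). From Day 10 to Day 14, 9 rose and 6 fell (48.3%, with 24% and 24.3%). From Day 14 to Day 21, 5 rose and 5 fell (26.6%, with 13.9% and 12.7%). The last step, to Day 28, had 4 higher and 6 lower (24%, with 10% and 14%, which is 1240 and 1724 genes, or 1661 and 1324 when scaled by library size only).

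Of the 5 steps between consecutive days, that from Day 10 to Day 14 had the most calls both in the family and among all genes. Canalicular and drug pumps were among those that rose, ABCB4 by 1.22 ± 0.26 (adjusted p = 0.00018, and at least 2-fold, as in 4.18% of all genes), ABCC5, ABCG2, ABCB1 and ABCC1 by 0.72 ± 0.12, 0.64 ± 0.12, 0.53 ± 0.059 and 0.42 ± 0.11, and ABCC2 by 0.20 ± 0.062, with ABCG5, ABCD4 and ABCA5. The call of ABCC2 was lost without Day 10 replicate 1 (adjusted p = 0.0913). Those that fell were ABCC6, ABCB10, ABCB9, ABCB6, ABCD3 and ABCA2, by between -0.46 and -0.87. The call of ABCA2 was lost without Day 10 replicate 2 (adjusted p = 0.0863) and without Day 14 replicate 1 (0.0757).

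**Figure D3:**
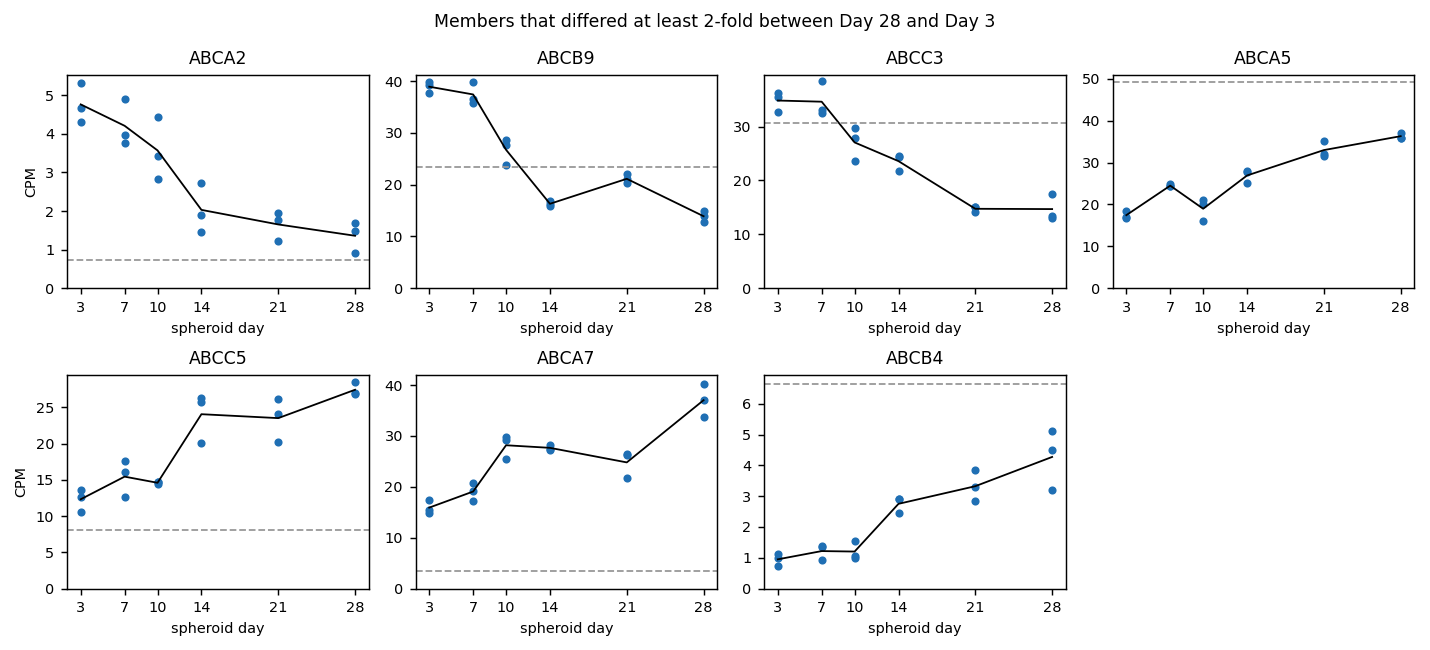
CPM (linear axis from 0) by spheroid day of the 7 members that differed at least 2-fold between Day 28 and Day 3, with a point for each library, a line through the group means and a dashed line at the 2D mean. ABCB4, ABCA7, ABCC5 and ABCA5 are higher at Day 28 than at Day 3, and ABCA2, ABCB9 and ABCC3 are lower.

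The make-up of the family's counts changed with its total. The summed level of all 45 members was 2325 ± 17.9 CPM (SD, n = 3) in 2D, 1923 ± 39.8 at Day 3 and 1688 ± 40.8 at Day 28. The sum adds genes with different probes, so it serves only to compare libraries. At Day 3 its drop was smaller than that of ABCB1 alone, from a mean of 835 CPM in 2D to 243. ABCB1 made up 35.9% ± 0.64 of family counts in 2D, 12.6% ± 0.24 at Day 3 and 15.7% ± 0.47 at Day 28. ABCD3 took 17.6% ± 0.83, 33.8% ± 0.30 and 23.0% ± 1.5. ABCC6 went from 0.599% ± 0.023 to 6.84% ± 0.12 and 4.62% ± 0.26. A share compares libraries and is no ratio of transcripts between genes. Shares are parts of a whole, so a smaller ABCB1 share goes with a larger share of the other members together. ABCD3 had a larger share at Day 28 than in 2D, though its mean level was 389 CPM at Day 28 against 409 in 2D.

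**Figure D4:**
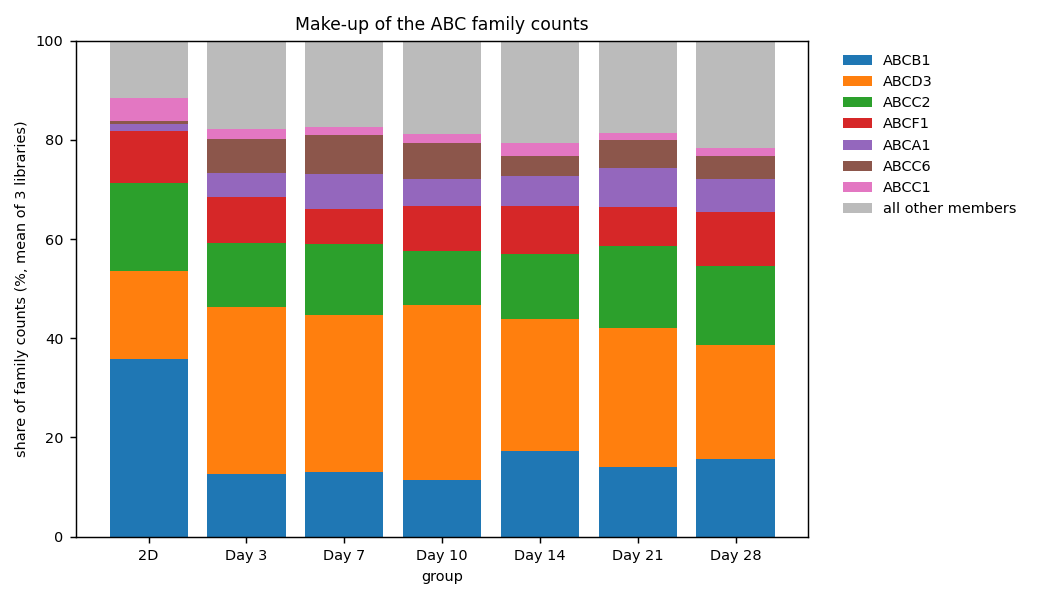
Share of the family's counts (%, mean of 3 libraries) in each group, for the 7 members with the largest shares and all others together. ABCB1 shrinks from 35.9% in 2D to 12.6% at Day 3, and ABCD3 grows from 17.6% to 33.8%. A larger share need not mean a higher level.

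Genes outside the naming rule were read from lists of the same pathways, whose counts stand beside the shares over all genes given above, 40.1% higher and 37.8% lower at Day 3 and 38.5% and 34.8% at Day 28, and beside all-gene medians of 0.06 and 0.08. TAP1 and TAP2, the peptide transporter of antigen presentation and ABC proteins by structure, both rose, by 2.71 and 1.92 at Day 3 and by 1.60 and 2.65 at Day 28 (log2), and CFTR had too few counts to be tested. Of 16 nuclear receptors and other factors known to control ABC genes, 8 rose and 4 fell at Day 3 (median 0.43), and 10 rose and 4 fell at Day 28 (median 0.48). At Day 3 the count of risers was near the share over all genes. NR1H4, the bile acid receptor FXR, was higher by 1.07 ± 0.10 at Day 3 and 2.30 ± 0.10 at Day 28. NR1H3, LXR alpha, was higher by 1.38 ± 0.17 and 1.30 ± 0.17, and NR1H2, LXR beta, was lower by -0.69 and -1.07. HNF4A rose by 1.34 and 1.81, and NR5A2 by 2.32 and 3.82. NR1I2, the xenobiotic receptor PXR, which controls ABCB1, rose by 1.05 ± 0.19 at Day 3 and stood at 0.03 ± 0.20 (adjusted p = 0.884) at Day 28. NR1I3, the receptor CAR, gave 0.37 ± 0.32 (adjusted p = 0.297) and 2.77 ± 0.29, and PPARA gave 0.15 ± 0.11 (adjusted p = 0.211) and 0.58 ± 0.11. NR0B2, the bile acid repressor SHP, rose by 1.44 at Day 3. AHR and FOXO3 fell by -2.27 and -1.40 at Day 3, and NFE2L2 by -1.09 at Day 28.

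Of 9 tested LXR targets other than ABC genes, 7 rose and 1 fell at both days (medians 0.96 and 1.26), against 40.1% and 38.5% of all genes higher. NR1H3 is among these 7 and was also counted with the factors above, so the lists are not separate. SCD and SREBF1 led at Day 3 (3.13 and 1.49) and SMPDL3A and SCD at Day 28 (2.67 and 2.05), while MYLIP fell (-1.62 and -1.13). The 15 tested genes listed as canalicular partners of the bile exporters also held SLC51A and SLC51B, the subunits of a basolateral bile acid exporter. Of the 15, 7 were higher and 7 lower at Day 3 (median -0.06), near the shares over all genes. At Day 28, 6 were higher and 8 lower (median -0.30). SLC51A led the rises (2.60 and 4.32), followed by PDZK1 at Day 3 (2.37) and CGN at Day 28 (3.13). SLC51B gave 0.89 ± 0.10 at Day 3 and -0.23 ± 0.10 at Day 28. STX3 fell at both days (-2.77 and -2.73), TJP1 at Day 3 (-2.10) and EZR at Day 28 (-2.63). Peroxisomal enzymes and biogenesis genes rose in 18 of 26 at both days and fell in 1 and 3 (medians 1.22 and 0.93). EHHADH led (4.92 and 3.45), with ACAA1 at Day 3 (2.75) and PEX6 at Day 28 (2.92), and PEX13 fell (-0.48 and -0.70), as did PEX5 at Day 28 (-0.35). Other sterol handling genes rose in 10 of 14 at both days and fell in 4 and 3 (medians 1.31 and 1.11), with APOA1 (2.96 and 2.67) and SOAT2 (2.39 and 2.57) against NPC1 (-1.62 and -1.04). Heme and iron-sulfur genes rose in 10 of 14 and 9 of 14 and fell in 4 and 3 (medians 1.27 and 1.18), with UROS (3.56 and 2.75) and NFS1 (2.77 and 1.94) rising. SLC25A37 (-1.69 at Day 3), SLC25A28 (-1.35 and -0.74) and ISCU (-0.67 at Day 28) fell. Of the genes named from these lists, CGN, NR5A2, SMPDL3A, SOAT2, TAP1 and SREBF1 were low in 2D. Their monolayer means were 0.113, 0.268, 0.322, 0.460, 0.504 and 0.710 CPM, so their fold changes rest on low counts.

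Total counts ran from 18760232 to 43443262 per library (median 31997292). The 7 hepatocyte markers summed to 6959 to 7292 CPM in 2D and to 29512 to 54729.7 in spheroids, moving with the groups compared above, and in bulk RNA fewer cells of a type and less RNA per cell cannot be told apart. Their part in the changes of ABC genes was not tested. Fibroblast markers (1 of 6 tested) summed to at most 0.229 CPM in 2D and 0.210 to 3.29 in spheroids, with COL1A1, COL1A2 and DCN at 0 in all libraries. Endothelial markers (1 of 5 tested) summed to at most 0.0651 and 1.16, with KDR at 0. Leukocyte markers (3 of 5 tested) summed to 64.7 to 69.3 CPM in 2D and 81.9 to 270.1 in spheroids through LYZ and CD68, with PTPRC at 0. Cholangiocyte markers (4 of 5 tested) summed to 736 to 768 in 2D and 503 to 943 in spheroids through SOX9, SPP1, EPCAM and KRT19, with KRT7 at most 0.108.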

How the data were processed

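The authors deposited 1 table of whole-number counts per gene symbol for all 21 libraries, with no columns of other samples. Per the labels' protocols, each library was made from the same amount of column-purified RNA with the TempO-Seq kit. The tools listed in the submitters' processing notes, without role or order, are STAR 2.7.10b, fastp 0.23.2, bcl2fastq 2.20.422 and DESeq2 1.38.0, and the build is GRCh38.p13. The sources used here do not give how oligos of a gene were combined.

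Genes passing edgeR's filterByExpr (minimum count 10) were scaled by TMM and fitted together by robust quasi-likelihood in edgeR 4.0.16 (R 4.3.3), which was tested on simulated data. Calls were made at an adjusted p under 0.05, with Benjamini-Hochberg adjustment over all 12345 tested genes. Each SE was the absolute log2 fold change divided by the square root of F. Alternatives included DESeq2 1.42.0. Replicate pairs differed by more than sampling noise (chi-square per degree of freedom 5.68 to 29.7), so no library was counted as a repeat.

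Members, roles, gene lists and tests were chosen with earlier results of these data known. Values per library are given for members called with at least a 2-fold change in any of 4 comparisons (Day 3 and Day 28 against 2D, Day 14 against Day 10, Day 28 against Day 3), for 13 members chosen by role and for a few others, and from each list for the 2 largest rises and falls called at Day 3 and Day 28 and 6 receptors. Loci came from GENCODE 29 and promoters from RefSeq, matched by symbol. Some genes that this rule names are not reported here, though they stay in the counts over all tested members.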

Additional observations from a re-analysis of the deposited data

Results flagged for a closer look

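ABCB9, the lysosomal peptide transporter, was picked out because its differences from 2D at Day 3 and at Day 28 had opposite signs, both of them called, and the difference between those days was called too. It was higher than 2D by 0.74 ± 0.090 at Day 3 and lower by -0.76 ± 0.095 at Day 28, and Day 28 lay below Day 3 by -1.49 (log2, edgeR's quasi-likelihood test, adjusted p = 4.67e-15), with no overlap between the libraries. Both differences from 2D use the same monolayer libraries. The cause was not tested.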

How the results depend on the processing

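For the tested members reported, in 4 comparisons (Day 3 and Day 28 against 2D, Day 14 against Day 10 and Day 28 against Day 3), 77 of 108 results kept their direction and their side of the threshold under every alternative run. Of the 84 called, 72 stayed called and 84 kept their direction. Scaling by library size only moved the median of all genes by up to 0.22 and reversed ABCD3 and ABCF3 at Day 28 against 2D (0.14 and 0.11) and ABCA7, ABCE1 and ABCG8 at Day 14 against Day 10 (0.027, 0.000346 and 0.011), none of them called in the fit reported. It moved the share of higher calls among all genes called by over 10 percentage points in 2 of 12 comparisons, from 1312 higher and 1081 lower to 1065 and 1637 at Day 7 against Day 3, and from 1240 and 1724 to 1661 and 1324 at Day 28 against Day 21, and by 0.349 to 9.78 points in the other 10. Leaving out each library in turn reversed 7 uncalled differences between Day 14 and Day 10, with ranges of -0.0036 to 0.24 for ABCA1, -0.10 to 0.012 for ABCA7, -0.094 to 0.24 for ABCB8, -0.018 to 0.084 for ABCC4, -0.14 to 0.015 for ABCE1, -0.027 to 0.089 for ABCF1 and -0.092 to 0.024 for ABCG8. NR1I2 at Day 28 against 2D ran from -0.10 to 0.29. With only the groups compared in the fit, the count of all genes called was 3600 rather than 2393 at Day 7 against Day 3 and 1865 rather than 2964 at Day 28 against Day 21. Leaving out a library gave 1547 to 2086 at Day 7 against Day 3. The cause was not tested. Deviations of same-numbered libraries correlated only weakly in the groups compared (-0.06 to 0.10), and the numbers were not used as pairs. Still, 16 of 21 libraries correlated best, on average, with their own number, so some shared deviation by number is possible. Whether the numbers mark a batch was not tested. A replicate block left 105 of 108 member results as they were and added calls for ABCC10 at Day 3 against 2D (adjusted p = 0.0297) and Day 14 against Day 10 (0.0278) and for ABCA1 at Day 28 against Day 3 (0.0241). Depth limits ABCB8, ABCA2, the levels of ABCB4 at Days 3, 7 and 10 and the monolayer levels of ABCB6, ABCC11 and ABCG8. These rest on 13 to 60 counts a library in at least some groups.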
